A study of Mus musculus with 14 samples.

Results

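The transcription factors that pattern the gut endoderm were followed through all 7 conditions of a mouse liver assembloid RNA-seq series, as the 9 genes Cdx1, Cdx2, Pdx1, Sox2, Barx1, Gata4, Gata5, Gata6 and Sox17. They were taken by name from a list drawn up with earlier results of these data known, by a rule that uses no measured value, and all 9 were found among the 28022 genes of the count matrix. The question was which regional identity of the gut tube the reprogrammed hepatic cells carried, before and after they were grown as organoids, and how that compared with fetal and adult liver. In the cultures 4 of the 9 factors were well above the detection floor, Sox17, Gata4, Cdx2 and Gata6, while Sox2 and Barx1 had no read in any culture library.

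The gut tube forms from definitive endoderm, for whose specification Sox17 is required, and is then divided from front to back. Sox2 marks the anterior foregut and stomach, Pdx1 the posterior foregut that gives rise to pancreas and duodenum, and Cdx2 with Cdx1 the midgut and hindgut. Barx1 is made by the mesenchyme around the stomach rather than by the epithelium. Gata4, Gata5 and Gata6 are zinc finger factors of the endoderm and of heart mesoderm, and Gata4 and Gata6 take part in the outgrowth of the liver bud from the ventral foregut. Hepatocytes are a foregut derivative, and Cdx2 is known as a factor of the intestine and not of the liver.

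Each condition had 2 libraries, all labelled C57BL/6J. Fibroblasts were taken from mid-gestation embryos. Induced hepatic stem cells (iHepSCs) were made from such fibroblasts by lentiviral delivery of mouse Oct4 and Hnf4α, and were sequenced on plates (2D-iH) or as organoids in a hydrogel of Matrigel and type I collagen (iHLO). A further pair of culture conditions added induced endothelial cells (iECs), made by delivering ETV2 to the human fibroblast line HF1, on plates (2D-iHE) or as assembloids (iHEA), with 30000 iHepSCs and 20000 iECs seeded. Adult liver came from 6-week-old mice and fetal liver from mid-gestation embryos. All 4 culture conditions were kept in the same co-culture medium containing oncostatin M. A human read from an iEC entered the table only if it matched a mouse gene. Nothing in the labels states that the 2 libraries of a condition were separate cultures or animals, so p-values measure the spread between libraries, which may be technical.

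Total counts ran from 20851489 to 35143325 per library. Levels are given as normalised CPM, counts relative to the library total (CPM) after trimmed mean of M-values (TMM) scaling, as a mean ± SD over 2 libraries, and per kb of exon where genes are compared with each other. A gene with at most 3 counts in every library of a condition is called at the floor. In adult liver Alb took 23.6% and 22.5% of all counts, and the TMM factors of those libraries were 0.412 and 0.420 against 1.12 to 1.21 elsewhere. The libraries of fetal liver and of iHEA differed from their own partner more than those of the other conditions did, with a chi-square per gene of 13.4 and 11.5 against 3.05 to 3.67. The labelled fibroblasts had 384378 and 347938 counts of Col1a1, against 9 to 441 in the cultures. All 5 cholangiocyte markers were above the floor in the cultures but not all were high there. Krt19 had 16159 to 31981 counts, whereas Spp1 was at 12.96 to 19.7 normalised CPM against 320.1 in fibroblasts and 211 in adult liver, and Cftr at 0.288 to 0.438 against 2.14 and 2.09. Alb had 2 to 210 counts in them, against 8113083 and 7888792 in adult liver.

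On GRCm38, with GENCODE M21 gene models, Cdx2 (chr5:147300805-147307270, minus strand) and Pdx1 (chr5:147269959-147275848, plus strand) are neighbours with 24956 bases between them. Their promoters are shown because the data separated these genes, Cdx2 being abundant in every culture library and Pdx1 at or near the floor. RefSeq (GRCm38.p6) promoters, from 250 bases before to 50 after the start site, were found for 5 of the 9 genes, Cdx2, Pdx1, Sox2, Gata5 and Barx1. The Cdx2 promoter, chr5:147307200-147307499 on the minus strand, is printed 5′ to 3′ with an octamer in capitals, and that of Pdx1, chr5:147269847-147270146 on the plus strand, held none of the motifs searched.
Cdx2: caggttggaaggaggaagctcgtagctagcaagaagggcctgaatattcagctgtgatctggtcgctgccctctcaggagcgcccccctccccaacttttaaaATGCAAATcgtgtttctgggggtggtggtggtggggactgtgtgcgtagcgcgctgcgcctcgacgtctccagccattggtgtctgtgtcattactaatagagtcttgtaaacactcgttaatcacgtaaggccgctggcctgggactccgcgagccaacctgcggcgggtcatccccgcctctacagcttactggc
Pdx1: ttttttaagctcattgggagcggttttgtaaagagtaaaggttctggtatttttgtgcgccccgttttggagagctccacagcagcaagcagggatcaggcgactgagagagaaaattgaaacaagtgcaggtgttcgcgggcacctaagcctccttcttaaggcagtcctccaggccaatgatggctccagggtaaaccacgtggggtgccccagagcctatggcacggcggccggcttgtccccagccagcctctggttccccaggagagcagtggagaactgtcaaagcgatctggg

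Motifs were searched on both strands in 32851 promoters of the same length. The octamer ATGCAAAT, the letters known for POU factors such as the delivered Oct4, was in 1.74% of all promoters and, of the 5 promoters examined here, only in that of Cdx2, at bases 104 to 111 of the window, 147 bases before the start site. The HNF4 letters CAAAGTCCA (0.475% of promoters), the GATA letters AGATAA (11.2%) and the CDX letters TTTATNG (10.9%) were in none of the 5. The motifs were chosen after the sequences were read, so the shares of all promoters are no test of these matches. They describe letters only, and no binding was measured. Pou5f1, the gene of Oct4, had 11 to 27 counts in the culture libraries and 0 in the fibroblasts and both livers. Counts of the delivered mouse Oct4 and of the cell's own gene cannot be told apart.

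On the same build the other factors are spread over the genome. Cdx1 lies at chr18:61018862-61036199, Sox2 at chr3:34650405-34652461 and Barx1 at chr13:48662998-48666507. The GATA genes are at chr14:63198922-63271692 (Gata4), chr2:180325133-180334699 (Gata5) and chr18:11052064-11085635 (Gata6), and Sox17 is at chr1:4490931-4497354. Pdx1 is overlapped by the antisense transcript Plut, Gata5 by Gata5os, Sox2 by Sox2ot, Gata6 by 1010001N08Rik and Sox17 by Gm37587. Because no source used here states whether strand was used in counting, reads of such pairs cannot be told apart.

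The 9 factors formed different sets in the different conditions. Fibroblasts held 3 of the 9 above the floor (Gata6, Sox2 and Gata4), 2D-iH, 2D-iHE and iHLO each held 4 (Sox17, Gata4, Cdx2 and Gata6), iHEA held 5 with Pdx1 added, and adult liver held 5 (Gata4, Gata6, Sox17, Gata5 and Barx1). Fetal liver held 8, all but Cdx1. Per kb of exon the order in every culture condition was Sox17, Gata4, Cdx2, Gata6, with 24.9 ± 0.766, 13.7 ± 0.348, 13.2 ± 0.270 and 6.25 ± 0.103 normalised CPM per kb in 2D-iH (SD, n = 2). Gata4 and Cdx2 lay next to each other there, with libraries at 13.4 and 13.9 for Gata4 and at 13.1 and 13.4 for Cdx2. In adult liver the leading factor per kb was Gata4 at 10.4 ± 0.490, followed by Gata6 at 2.77 ± 0.0558 and Sox17 at 1.07 ± 0.0101. In fetal liver Gata4 at 9.34 ± 1.32 was followed by Barx1 at 5.60 ± 0.683 and Gata6 at 3.76 ± 0.230.

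**Figure D1:**
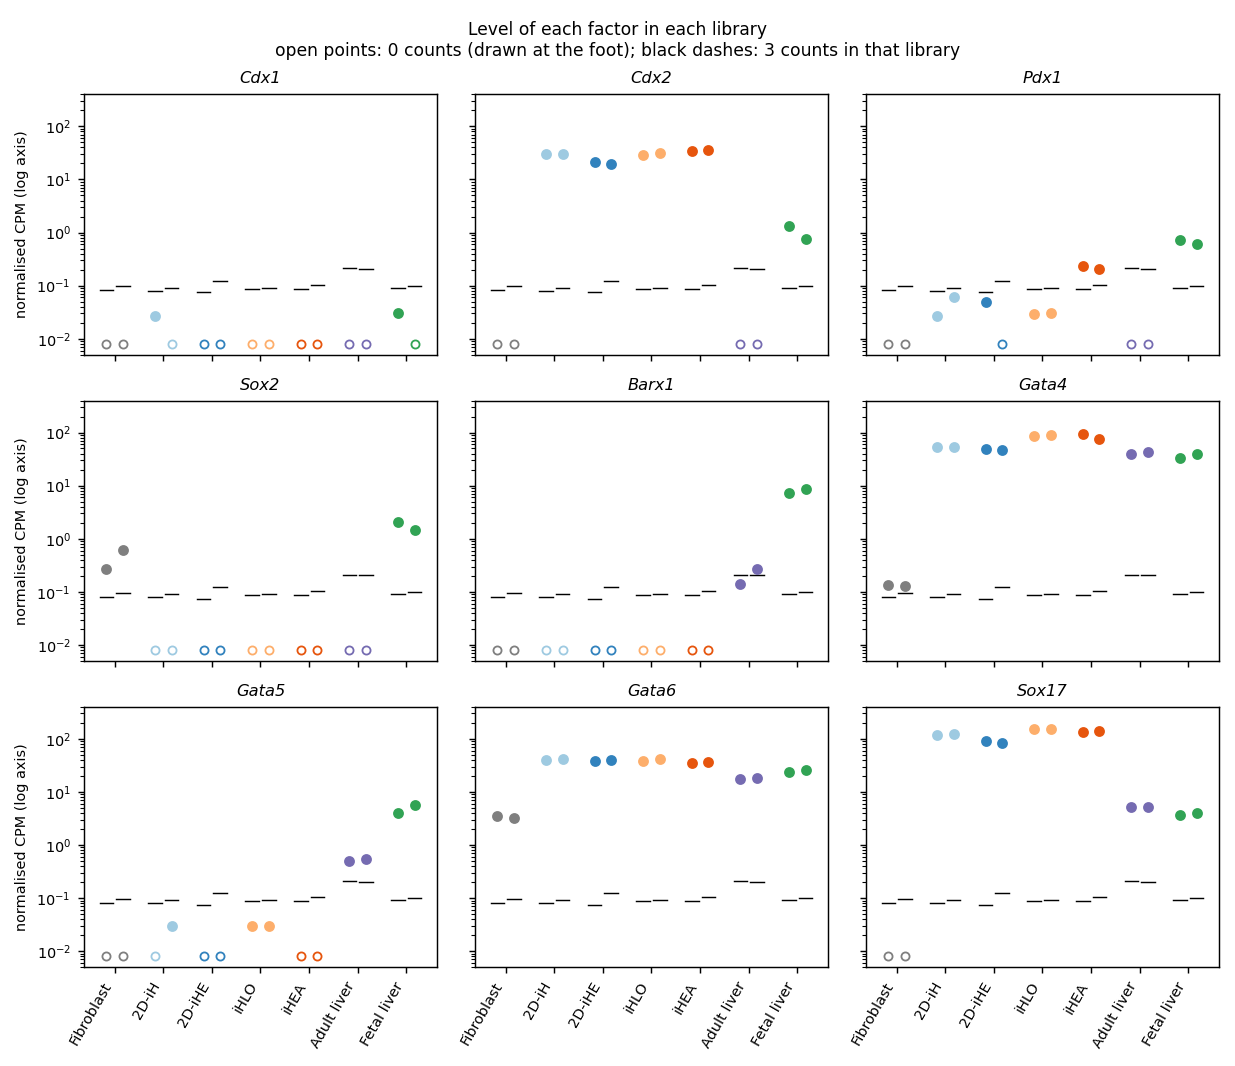
Normalised CPM (log axis) of each of the 9 factors in each of the 14 libraries, by condition, with filled points for libraries holding counts, open points at the foot for libraries with 0 counts, and a black dash at the level of 3 counts in that library. Sox17, Gata4, Cdx2 and Gata6 sit between 19.3 and 151 in all 8 culture libraries, whereas Sox2 and Barx1 are open points in all 8.

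Cdx2, a master regulator of intestinal identity, was abundant in the cultures, low in fetal liver and without a read in adult liver. It had 0 counts in both libraries of fibroblasts and in both of adult liver. The plate cultures had 1094 and 1002 counts (2D-iH) and 853 and 472 (2D-iHE), the 3D cultures 974 and 1033 (iHLO) and 1154 and 1041 (iHEA), and fetal liver had 43 and 23. Every culture library was above every other library, and 2D-iHE was the lowest culture condition once depth was taken into account. As normalised CPM the levels were 29.9 ± 0.612 in 2D-iH, 20.3 ± 1.32 in 2D-iHE, 29.9 ± 1.80 in iHLO, 35.0 ± 1.63 in iHEA and 1.04 ± 0.377 in fetal liver (SD, n = 2). The order was iHEA, 2D-iH, iHLO, 2D-iHE, fetal liver, in which 2D-iH and iHLO overlapped and the others stood apart from their neighbour. Cdx1, the partner of Cdx2 in the hindgut, had 1 count in 1 library of 2D-iH and 1 in 1 library of fetal liver, and 0 in the other 12 libraries, so it was not detectable at this depth.

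The other posterior gut factors were mixed. Klf5, a factor of intestinal crypts, had 143 normalised CPM in 2D-iH and 121 in iHLO against 17.0 in fibroblasts and 0.519 in adult liver. Klf4, a factor of goblet and surface epithelium that is also used in reprogramming, had 106 in 2D-iH and 247 in iHLO. Cdx4 and Isx had at most 3 counts in any culture library, and Hnf4g, the intestinal relative of Hnf4a, had 0 or 1 per library in 2D and 5 to 12 in 3D.

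Pdx1 was at the floor in 5 of the 7 conditions. It had 24 and 18 counts in fetal liver and 8 and 6 in iHEA, against 1 and 2 in 2D-iH, 1 and 1 in iHLO, 2 and 0 for 2D-iHE, and 0 in all libraries of fibroblasts and adult liver. Both iHEA libraries were above the other 6 culture libraries and below both fetal liver libraries. With 14 counts in iHEA against 2 in 2D-iHE the ratio of normalised levels was 7.20, with an exact 95% interval from 1.65 to 65.3 that covers counting error only. Against the 2 counts of iHLO it was 7.47, with an interval from 1.72 to 67.8, but with Pdx1 added to the genes tested by edgeR this difference was not called (adjusted p = 0.113). Plut, which overlaps Pdx1 on the other strand, had 3 to 10 counts per library in 2D and 31 to 51 in 3D, with iHLO at 38 and 31, where Pdx1 had 1 and 1.

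The wider pancreas and duodenum list of 10 factors gave little signal. The LIM factor Isl1 had 94 to 157 counts in the 8 culture libraries, 67 and 81 in fetal liver, and 0 in fibroblasts and adult liver. Neurod1, an endocrine factor, had 43 and 19 counts in iHLO and 20 and 29 in iHEA against 1 to 5 in the 2D libraries. Markers of mature pancreas were absent from the cultures, where 0 of 7 were above the floor in any condition, and the summed level was at most 0.121 normalised CPM.

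Sox2 and Barx1, the stomach and foregut factors, had no read in any of the 8 culture libraries. The highest level that 3 counts give in these libraries was 0.123 normalised CPM. Sox2 had 67 and 44 counts in fetal liver, 10 and 19 in fibroblasts and 0 in adult liver. Its mean in fetal liver, 1.75 ± 0.394 normalised CPM, was at least 14.3-fold above the cultures and 3.95-fold above the fibroblasts, and the libraries did not overlap. Barx1 had 236 and 254 counts in fetal liver, 2 and 4 in adult liver and 0 elsewhere. Its mean in fetal liver, 7.83 ± 0.956 normalised CPM, was at least 63.7-fold above the cultures. Among anterior foregut factors of the epithelium, Sox21, a relative of Sox2, was nonetheless present in all culture libraries, at 20.3 normalised CPM in 2D-iH and 11.5 in iHLO. Genes of the stomach lining were also present without Sox2: Gkn1, a gastrokine, had 14 to 33 counts per library in 2D and 3069 to 5893 in 3D, and its relative Gkn2 had 61 to 213 and 5095 to 10064. The pepsinogen gene Pgc had 0 to 5 counts per library in 2D and 2446 to 3997 in 3D, and so passed the filter on low counts through the 3D libraries alone, as did the mucin gene Muc5ac.

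Genes listed for gut mesenchyme, pancreas and stomach were also found in the fetal liver libraries. All 12 gut mesenchyme factors were above the floor there, with a summed level of 52.9 to 77.6 normalised CPM against 10.3 to 11.8 in adult liver, where 3 of 12 were above it in both libraries. Among them Wt1, a mesothelial factor, had 352 and 488 counts, Foxf1 427 and 536, and the splenic factor Tlx1 50 and 46. Of 7 pancreas markers 3 were above the floor in both libraries, Cpa1 with 318 and 267 counts, Gcg with 71 and 104, and Cel with 20 and 7, at a summed level of 12.5 to 12.9 against at most 0.0708 in adult liver, while Prss1 was at 0. Of 8 gastric markers 4 were above the floor, led by Muc6 with 798 and 519 counts, at a summed level of 19.4 to 26.8 against 9.1 to 9.4 in adult liver, and Gkn1 was at 0. Which cells these counts came from, and their part in the fetal liver values of Barx1, Sox2, Pdx1, Cdx2 and Gata5, were not tested. In bulk libraries fewer cells of a type and less RNA per cell cannot be told apart.

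The 3 GATA genes went different ways. Gata4 had 5 and 4 counts in fibroblasts, then 1945 and 1794 (2D-iH), 2007 and 1144 (2D-iHE), 2964 and 2956 (iHLO), and 3140 and 2145 (iHEA). Adult liver had 557 and 620 counts, and fetal liver 1083 and 1198. As normalised CPM Gata4 was highest in iHLO at 88.2 ± 1.46 and iHEA at 83.4 ± 12.5, which overlapped. Next came 2D-iH at 53.4 ± 1.36 and 2D-iHE at 48.4 ± 2.14. Below them adult liver at 40.8 ± 1.91 and fetal liver at 36.5 ± 5.15 overlapped. The order of the livers depends on the scaling. With library totals in place of TMM, Gata4 was lower in adult than in fetal liver, by -1.32 on the log2 scale. Gata6 already had 130 and 100 counts in the fibroblasts, and its culture levels lay close together, at 40.7 ± 0.668 in 2D-iH, 38.6 ± 1.69 in 2D-iHE, 40.2 ± 2.96 in iHLO and 35.8 ± 1.47 in iHEA. Of these only iHEA stood apart from its neighbour in the order. Gata6 was at 24.5 ± 1.5 in fetal liver, 18.0 ± 0.363 in adult liver and 3.38 ± 0.203 in fibroblasts.

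The ratio of Gata4 to Gata6 within a library, per kb, therefore moved with culture and tissue. It was 0.0641 and 0.0667 in the fibroblasts, from 1.96 to 2.22 in the 4 2D libraries, and from 3.38 to 4.42 in the 4 3D libraries. Adult liver lay at 3.70 to 3.84, inside the range of the 3D libraries, and fetal liver at 2.34 to 2.62, between 2D and 3D. A ratio within a library does not depend on the scaling. Gata5 was found mainly in fetal liver, with 133 and 166 counts in fetal liver, 7 and 8 in adult liver, and 3 counts in all 8 culture libraries together. Its 299 counts in fetal liver against 1 in 2D-iH gave a ratio of 333, with an exact 95% interval from 59.3 to 13203. Gata5os had at most 3 counts in any library.

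The cofactors and relatives of the GATA factors also changed. Zfpm1 (FOG1) and Zfpm2 (FOG2) bind GATA factors and modify their activity. Zfpm2 ran from 1520 to 2436 counts over the 2D libraries and from 233 to 264 over those in 3D, and Zfpm1 from 836 to 1477 and from 2324 to 3204. The blood GATA factors were nearly absent from the cultures, with at most 2 counts of Gata1 against 7591 and 6557 in fetal liver, a site of blood formation, and at most 9 of Gata2.

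Sox17 was the most abundant of the 9 factors per kb in every culture condition. Its counts were 4308 and 4004 for 2D-iH, 3616 and 1997 for 2D-iHE, 5117 and 4990 for iHLO, and 4550 and 3968 for iHEA. Both fibroblast libraries had 0, adult liver had 72 and 76, and fetal liver 123 and 122. All culture libraries were far above both livers, and no neighbours in the order iHLO, iHEA, 2D-iH, 2D-iHE, adult liver, fetal liver, fibroblasts overlapped. The levels were 151 ± 0.105, 136 ± 3.09, 119 ± 3.66, 85.8 ± 5.72, 5.13 ± 0.0482 and 3.91 ± 0.252 normalised CPM in that order down to fetal liver, and in iHLO Sox17 ranked above 92.3% of the detected genes per kb. In the cultures as a whole the mean was 23.9 times that of adult liver and 31.4 times that of fetal liver. The ratio to adult liver, and the place of adult above fetal liver in the order, depend on the TMM scaling. With library totals in place of TMM, Sox17 was lower in adult than in fetal liver, by -1.09 on the log2 scale.

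Sox17 is also a gene of endothelium and of the bile duct primordium, and its close relatives Sox7 and Sox18 did not accompany it. Sox18 had at most 1 count in any culture library against 134 and 137 in adult liver and 254 and 249 in fetal liver, and Sox7 had 1 to 15 counts in the cultures against 55 to 132 in the livers. Of the endothelial markers Pecam1 had 2 to 22 counts in the cultures, Erg and Emcn at most 2 and Kdr at most 25, whereas Cdh5 had 9451 to 16261, also in 2D-iH and iHLO, which received no iECs. Tek ran from 30 to 79 counts per library in 2D and from 2252 to 3906 in 3D. Vwf, which encodes von Willebrand factor, ran from 363 to 1010 counts in 2D and from 11946 to 25206 in 3D, highest in iHLO, which received no iECs, at 704.9 ± 79.8 normalised CPM against 58.5 ± 9.22 in fetal liver. The summed level of the 9 endothelial markers was 416 to 485 normalised CPM in 2D and 868 to 1349 in 3D. Most of it was Cdh5, at 436 in 2D-iH, and in 3D also Vwf. The part of these genes in the Sox17 values was not tested. Eomes, which acts upstream of Sox17 in the embryo, had 24 to 69 counts in the cultures and 0 in the fibroblasts and fetal liver.

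The comparison of 2D-iH cells with fibroblasts asked which factors the conversion brought with it. All 4 factors that passed the filter of a mean log2(count + 1) of at least 3 were called higher in 2D-iH than in fibroblasts (edgeR quasi-likelihood test, Benjamini-Hochberg adjusted p under 0.05), in a comparison in which 83.9% of 14121 tested genes were called, 45.8% higher and 38.1% lower. Those 4 passed the filter largely through the cultures, where they are high, so their count says nothing of the other 5. Gata6 rose by 3.58 on the log2 scale (SE 0.0928, adjusted p = 8.41e-15) and Gata4 by 8.61 (SE 0.223, adjusted p = 8.47e-15). Sox17 and Cdx2 started from 0 counts, and their 2D-iH means were at least 1222-fold and at least 308-fold above the level of 3 counts in a fibroblast library. Sox2, with the 9 genes added to those tested, went the other way (adjusted p = 0.000472), from 0.443 ± 0.243 normalised CPM to 0 in both 2D-iH libraries, at least 4.87-fold lower.

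Other endoderm factors moved both ways in this comparison. Of 13 liver and pan-endoderm factors tested, 7 were called higher and 5 lower, beside 45.8% and 38.1% of all tested genes. Foxa2, a pioneer factor of the whole endoderm, rose by 8.28 (SE 0.125, adjusted p = 2.89e-17), while its relative Foxa1 fell by 9.13 (SE 0.214, adjusted p = 2.69e-15), from 2075 and 1858 counts to 3 and 4. Onecut1, a liver and biliary factor, had 0 counts in every culture library, against 605 and 678 in adult liver. Hnf4a was high at 208 normalised CPM in 2D-iH, but counts of the delivered mouse Hnf4α and of the cell's own gene cannot be told apart.

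**Figure D2:**
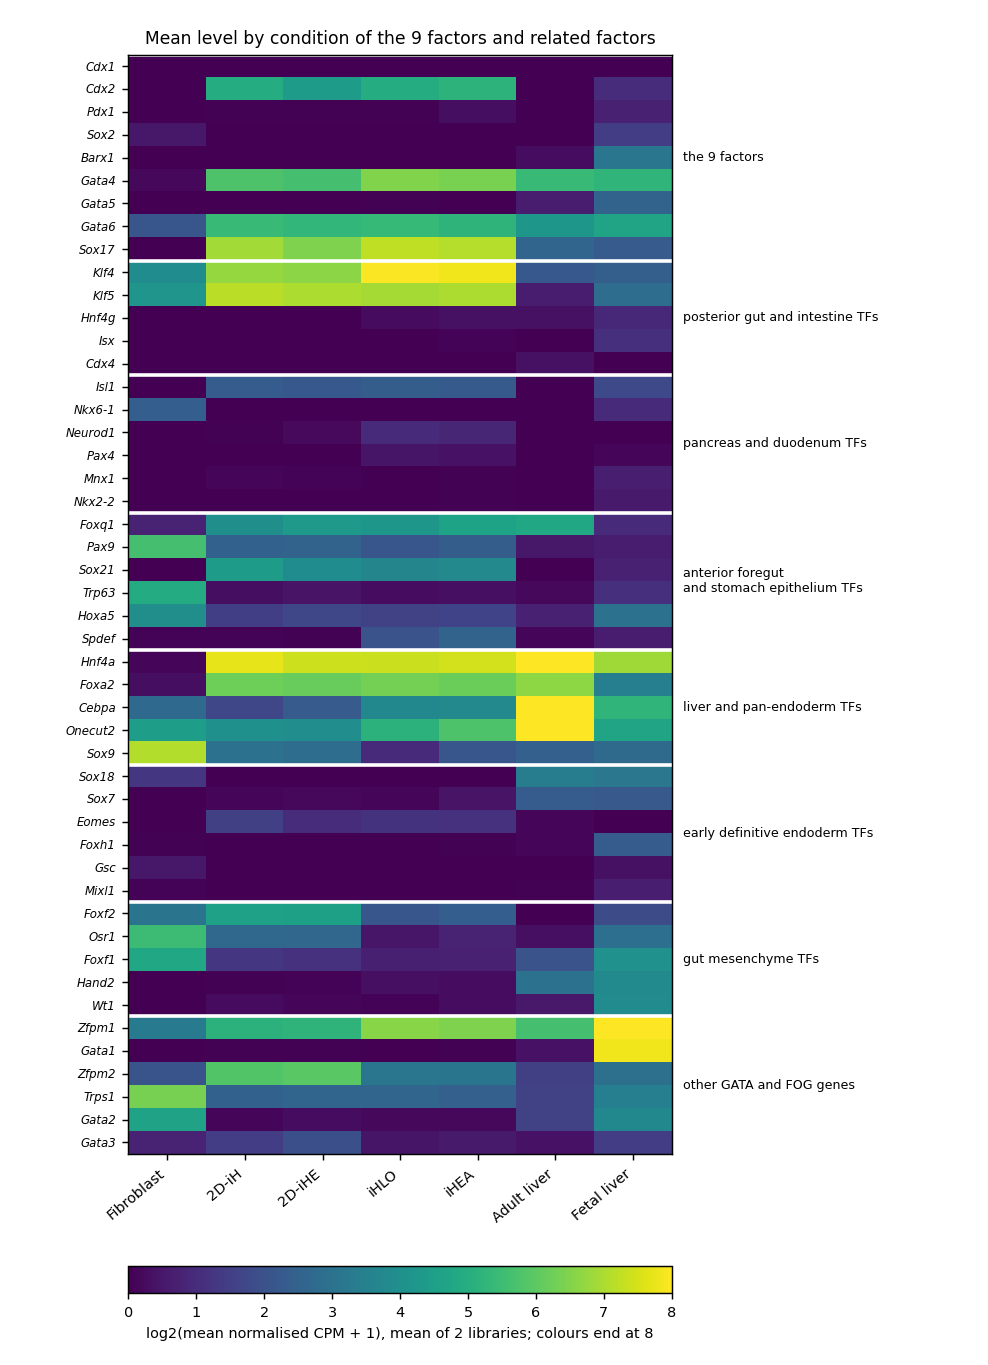
Mean level by condition (columns) of the 9 factors and of up to 6 genes from each of 7 lists of related factors (rows, grouped), as log2(mean normalised CPM + 1) of 2 libraries, on a colour scale that ends at 8. The cultures share Gata4, Gata6 and Foxa2 with the livers, while Cdx2, Sox17, Klf5 and Sox21 are bright in the cultures and dim in adult liver, at 0, 5.13, 0.519 and 0 normalised CPM.

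Against fetal liver, 2D-iH cells were higher in the same 4 factors, at a background of 85.5% of genes called, 42.3% higher and 43.2% lower. Sox17 was higher by 4.93 (SE 0.0792, adjusted p = 2.55e-16) and Cdx2 by 4.83 (SE 0.151, adjusted p = 1.27e-12), with Gata6 and Gata4 differing less, by 0.73 (SE 0.0716) and 0.55 (SE 0.0966). With the 9 genes added to those tested, Barx1, Gata5, Sox2 and Pdx1 were called lower, so that 4 were higher and 4 lower. The 2D-iH mean of Barx1 was at least 86.1-fold lower and that of Sox2 at least 19.3-fold lower, and for Pdx1 42 counts stood against 3, a ratio of 15.6 with an exact 95% interval from 4.99 to 78.7. In iHLO 4 of 4 tested factors were called higher than in adult liver, at a background of 84.9% of genes called, 45.1% higher and 39.8% lower. With the 9 genes added, 4 were called higher and 2 lower. In both comparisons the filter ran over all 14 libraries, including the 8 culture libraries where these 4 are high. Their count therefore says nothing of the other 5.

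Relative to adult liver, Sox17 in iHLO was higher by 4.88 (SE 0.0864, adjusted p = 3.45e-16), Gata6 by 1.16 (SE 0.0824, adjusted p = 1.92e-09) and Gata4 by 1.11 (SE 0.101, adjusted p = 4.07e-08). Cdx2 was at least 141-fold higher. Gata5 was called lower when added, with 2 counts in iHLO against 15 in adult liver. That is a ratio of 17.4 to adult liver, with an exact 95% interval from 4.06 to 157. It uses levels scaled by TMM, with factors of 0.412 and 0.420 in adult liver and 1.18 in both iHLO libraries. Barx1 was also called lower when added, with 0 counts against 2 and 4 (adjusted p = 0.00366). Its adult liver mean of 0.207 normalised CPM was below the highest level that 3 counts give there, 0.212. With library totals in place of TMM the median of all tested genes moved from 0.11 to 1.61 in this comparison. Under that setting Gata4 was higher by 2.62 and Gata6 by 2.66, against that shifted median.

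Between the livers the low factors differed and Gata4 was not called. Of the 4 factors tested Cdx2 and Gata6 were called lower in adult than in fetal liver and Sox17 higher, at a background of 83.7% of genes called, 42.9% lower and 40.8% higher. Gata6 fell by 0.44 (SE 0.0857, adjusted p = 0.000192), Sox17 rose by 0.40 (SE 0.131, adjusted p = 0.0119), and Gata4 differed by 0.16 (SE 0.106, adjusted p = 0.163). Sox17 lost its call without the first fetal liver library (0.32, adjusted p = 0.0818) and Gata4 was called higher without the second (0.27, adjusted p = 0.0237). With library totals in place of TMM the median of all tested genes shifted from -0.06 to -1.54, and all 3 were then lower in adult liver, by -1.93 for Gata6, -1.09 for Sox17 and -1.32 for Gata4. Cdx2, Sox2 and Pdx1 were at 0 in adult liver, and fetal liver was at least 4.88-fold, 8.25-fold and 3.13-fold above the level of 3 counts. Gata5 (9.23-fold by the normalised means) and Barx1 were also called lower in adult liver when added, with adjusted p of 1.70e-06 and 2.08e-07.

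With both 3D conditions pooled against both 2D conditions, 3 of the 4 culture factors were called higher and Gata6 was not called. For Cdx2 the rise was called in the pair with iECs and not in the pair without them, as given below. Gata4 went from 46.8 to 54.4 normalised CPM over the 4 2D libraries to 74.5 to 92.2 over the 4 3D libraries, and Sox17 from 81.8 to 121 to 134 to 151, with no overlap for either. Cdx2 overlapped, at 19.3 to 30.4 in 2D and 28.7 to 36.2 in 3D, and so did Gata6, at 37.4 to 41.1 and 34.7 to 42.3. On the log2 scale Gata4 rose by 0.79 (SE 0.0648, adjusted p = 5.06e-07), Sox17 by 0.52 (SE 0.109, adjusted p = 0.00101) and Cdx2 by 0.41 (SE 0.135, adjusted p = 0.0171), and Gata6 differed by -0.02 (SE 0.0612, adjusted p = 0.761). Those 3 of 4 called higher stand beside 75.9% of 13409 tested genes called, 38.7% higher and 37.2% lower. The median of the 4 was 0.46 and that of all tested genes 0.01. Without the first 2D-iHE library Cdx2 lost its call, at 0.32 (adjusted p = 0.0582). Of 6 endothelial markers tested in the same comparison 5 were called higher, and Cdh5 was not called. Tek rose by 5.90 (SE 0.231, adjusted p = 1.05e-09), Vwf by 4.82 (SE 0.260, adjusted p = 1.46e-08) and Tie1 by 3.56 (SE 0.501, adjusted p = 4.97e-05). The part of these markers in the Sox17 rise was not tested.

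Taken condition by condition, Cdx2 was called higher in 3D with iECs and not without them, and this difference was itself called, as given further on. Between iHLO and 2D-iH Gata4 rose by 0.77 (SE 0.0772, adjusted p = 1.19e-06) and Sox17 by 0.39 (SE 0.0524, adjusted p = 2.09e-05), 2 of 4 at a background of 72.3% called, 36.9% higher and 35.3% lower. Cdx2 differed by 0.04 (SE 0.0693, adjusted p = 0.597) and Gata6 by 0.03 (SE 0.0681, adjusted p = 0.745). Between iHEA and 2D-iHE 3 of 4 were called higher, at a background of 70.9% called, 36.0% higher and 34.9% lower. Gata4 rose by 0.82 (SE 0.0787), Cdx2 by 0.82 (SE 0.0722) and Sox17 by 0.69 (SE 0.0537), with adjusted p from 9.42e-08 to 8.07e-07. Pdx1 was called in this comparison too once it was added to the tested genes (adjusted p = 0.00794). Gata6 differed by -0.07 (SE 0.0700, adjusted p = 0.373).

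**Figure D3:**
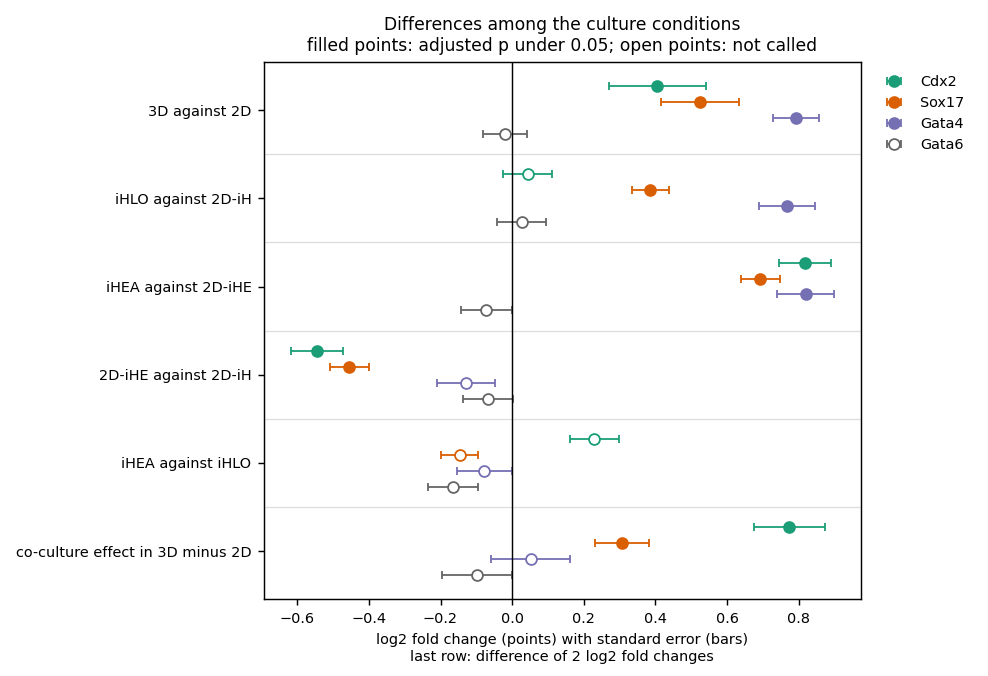
Log2 fold change (points) with its standard error (bars) of Cdx2, Sox17, Gata4 and Gata6 in 6 comparisons among the 8 culture libraries, filled where the adjusted p was under 0.05 and open where it was not. The last row is a difference of 2 log2 fold changes, 0.77 for Cdx2, and Gata6 is open in every row.

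Co-culture with iECs was tested on plates and in 3D, and then the difference between these effects. On plates, Cdx2 fell by 0.54 (SE 0.0724, adjusted p = 0.000680) and Sox17 fell by 0.45 (SE 0.0537, adjusted p = 0.000301) in 2D-iHE relative to 2D-iH, while Gata4 at -0.13 (SE 0.0799, adjusted p = 0.386) and Gata6 at -0.07 (SE 0.0688, adjusted p = 0.627) were not called. This was 2 of 4 lower where 8.17% of all tested genes were called, 3.92% lower and 4.26% higher. With the 7 of the 9 genes that had a read in the cultures all tested, the shares were 3.91% lower and 4.24% higher. Of 6 endothelial markers tested 3 were also called lower in 2D-iHE, Tie1 at -1.32 (adjusted p = 0.0395), Tek at -0.99 (adjusted p = 0.00250) and Vwf at -0.81 (adjusted p = 0.000208), and 4 of the 6 were called lower in iHEA than in iHLO, beside 1.07% of all tested genes. Their part in the Sox17 values was not tested. In 3D none of the 4 was called between iHEA and iHLO by edgeR's quasi-likelihood test or by DESeq2's Wald test, at a background of 2.26% called, 1.19% higher and 1.07% lower, although 3 of the 4 had an unadjusted p under 0.05. Cdx2 was at 0.23 (SE 0.0690, adjusted p = 0.128), Gata6 at -0.17 (SE 0.0693, adjusted p = 0.325), Sox17 at -0.15 (SE 0.0523, adjusted p = 0.221) and Gata4 at -0.08 (SE 0.0757, adjusted p = 0.776). Without the first iHEA library Cdx2 was called higher and Gata4 lower, at 0.29 (adjusted p = 0.0352) and -0.23 (adjusted p = 0.0304).

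The co-culture effect on Cdx2 differed between 3D and 2D by 0.77 (SE 0.10, adjusted p = 0.00162), and that on Sox17 by 0.31 (SE 0.0749, adjusted p = 0.0471). These were 2 of 4 called higher, where 3.14% of tested genes were called, 1.52% higher and 1.62% lower (1.53% higher with the 7 genes tested). The values for Gata4 and Gata6 were 0.05 (SE 0.110, adjusted p = 0.884) and -0.10 (SE 0.0977, adjusted p = 0.712). The Sox17 call was lost when any single library of 2D-iH, 2D-iHE or iHLO was left out, with adjusted p from 0.0708 to 0.177, and the Cdx2 call was kept with adjusted p up to 0.0161. The 2D-iHE libraries were the shallowest and the deepest of the series, at 20851489 and 35143325 counts, with Cdx2 at 19.3 and 21.2 normalised CPM in that order.

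Genes of the intestinal epithelium were examined beside Cdx2. Cdh17, a cadherin of intestinal cells, had 3675 and 3490 counts in 2D-iH, 1558 and 905 with iECs on plates, 5876 and 6244 in iHLO, and 7203 and 6092 in iHEA, but the fibroblasts also had 1098 and 855. The galectin Lgals4 had 716, 443, 1837 and 1918 normalised CPM in the same order of conditions, and the brush border gene Vil1 22.2, 15.6, 145 and 157. Of 8 intestinal genes 3 were called lower in 2D-iHE than in 2D-iH (Cdh17, Lgals4 and Vil1), beside 3.92% of all genes, and in the difference between the co-culture effects 4 were called higher, beside 1.52%. In that last comparison Cdh17 had 1.65 (SE 0.0805, adjusted p = 7.53e-07), Lgals4 0.75 (SE 0.0751, adjusted p = 0.000258), Vil1 0.62 (SE 0.0985, adjusted p = 0.00512) and Gpa33 1.38 (SE 0.301, adjusted p = 0.0276). Cdx2 overlapped between iHLO and 2D-iH, whereas the means of Vil1, Lgals4 and Gpa33 were 145, 1837 and 71.1 normalised CPM in iHLO and 22.2, 716 and 2.24 in 2D-iH. Fabp2, Muc2 and Sis, genes of absorptive and goblet cells, had at most 16, 27 and 111 counts in any culture library.

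**Figure D4:**
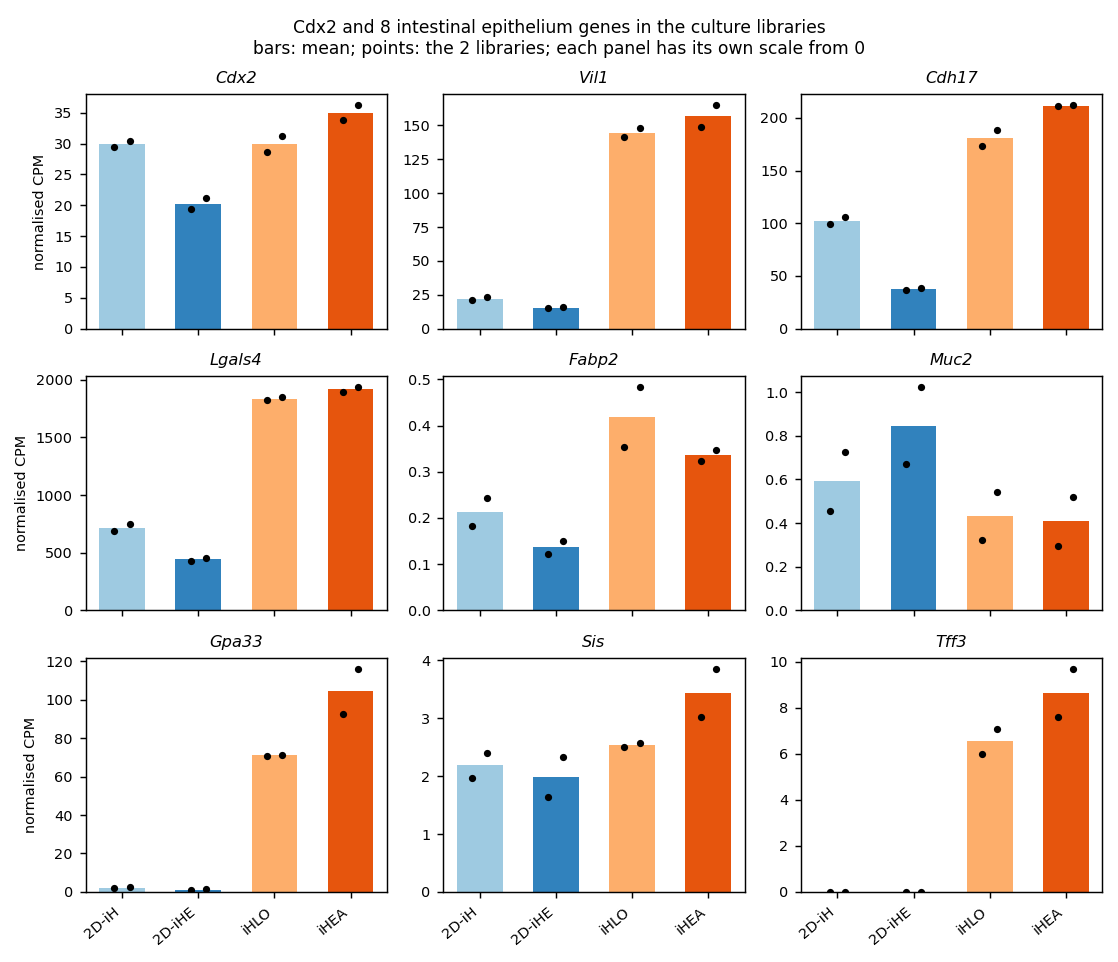
Normalised CPM of Cdx2 and of 8 intestinal epithelium genes in the 4 culture conditions, with bars for the mean and points for the 2 libraries, each panel on its own scale from 0. Cdx2, Cdh17, Lgals4 and Vil1 are lowest in 2D-iHE, where Cdx2 was at 20.3, and Vil1, Lgals4, Gpa33 and Tff3 are higher in iHLO and iHEA than on plates.

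The lists of related factors are given for 3D against 2D beside the 38.7% of all tested genes called higher and 37.2% lower there. Of 10 liver and pan-endoderm factors tested 6 were called higher in 3D than in 2D and 1 lower, including Cebpa by 2.08 (SE 0.179) and Onecut2 by 1.61 (SE 0.169), both with adjusted p of at most 4.23e-06. Sox9, a biliary progenitor factor, fell by 1.55 (SE 0.398, adjusted p = 0.00411). Of 4 gut mesenchyme factors tested 3 were called lower and none higher, led by Osr1 at -3.20 and Foxf2 at -2.52. Of 4 GATA and FOG genes 1 was higher, Zfpm1 at 1.41 (SE 0.0554), and 2 were lower, Zfpm2 at -2.91 (SE 0.0746) and Gata3 at -2.38 (SE 0.291). Of the foregut and stomach factors, Spdef, a secretory factor, had 0 to 3 counts per library in 2D and 102 to 190 in 3D, and passed the filter through the 3D libraries alone. Of the 7 tested, 3 were called higher, Spdef included, with Nkx6-3 at 0.77 (SE 0.247) and Foxq1 at 0.36 (SE 0.129), and 2 lower, Sox21 at -0.46 (SE 0.141) and Pax9 at -0.29 (SE 0.112), while Hoxa5 and Trp63 were not called. In the co-culture difference Sox21 was called higher, at 0.68 (SE 0.139, adjusted p = 0.0201).

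The genes whose levels across the 14 libraries were most like each factor are given as a description, since libraries of a condition move together. Likeness was Pearson's r of log2 normalised CPM over 14 libraries, searched among 14121 genes. Cdx2 was most like Plch1 (0.997), AA986860 (0.995) and the tight junction gene Cldn18 (0.995), and Cldn18 had 8362 to 14118 counts in the cultures, 42 and 51 in fetal liver and 0 in fibroblasts and adult liver. Sox17 was most like Naip6 (0.998), Il2rg and Hip1r, and Gata4 most like Tmem51 (0.994), Cgn and Lrba. Gata6 was most like Arhgap45 (0.992), Pls1 and Cdh5. Gata5 was most like Gas5 (0.993) and the globins Hbb-bt and Hba-a2, and Barx1 most like Mylk3 (0.992), the red cell gene Slc4a1 and U2af1. Sox2 was most like Smpd4 (0.990), Hdac1 and Igf2, and Pdx1, less closely, like Adgrg1 (0.935). Cdx1 had no likeness to give.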

How the data were processed

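The authors sequenced RNA of 14 libraries. Their processing notes name Trimmomatic 0.36, HISAT2, Cufflinks and HTSeq with the mm10 build, and the deposited table holds raw read counts per gene symbol (whole numbers, not normalised). How strand and reads with several alignments were treated is not given in the sources used here. Columns were matched to libraries by their names. The name of the second iHEA column holds 2 conflicting numbers, its own and that of the first iHEA library, and it was used as an unnumbered library of that group. Whether both iHEA columns come from 1 sample cannot be told from the names, which touches the n of 2 of every iHEA value. Their counts differed by more than sampling noise (chi-square per gene 11.5, against 3.05 to 13.4 in the other conditions), so neither is a copy of the other.

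Counts were scaled by TMM and tested with edgeR 4.0.16 (glmQLFit, glmQLFTest) in R 4.3.3. Comparisons among cultures used the 8 culture libraries (13409 genes whose log2(count + 1) averaged 3 or more), and the others used all 14 libraries (14121 genes). The 3D against 2D comparison had 1 term for culture method, and the rest had 1 term per condition. Benjamini-Hochberg adjustment ran over all tested genes, with calls at 0.05. Of the 9 genes 4 passed the filter in both fits, and a further fit added the others. Folds against a condition at 0 use the highest level that 3 counts give in a library of that condition. Folds against 1 to 3 counts carry an exact Clopper-Pearson 95% interval. Intervals and floors cover counting error only. Exon lengths came from GENCODE M21. DESeq2 1.42.0, other filters and scalings, and omission of each library were alternatives, and the scripts were tested on simulated counts.

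The genes and lists were chosen with earlier results of these data known, and promoter motifs were chosen after the sequences were read. Each list names up to 6 genes by mean count, and further genes of the lists were named after their values were seen. Some related genes are not reported here. For likeness, genes were ranked with a prior count of 2. The replicate numbers did not pair libraries (correlations of deviations from -0.0704 to 0.0480), so no block was used.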

Additional observations from a re-analysis of the deposited data

Results flagged for a closer look

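The effect of adding iECs differed between 3D and 2D for 2 of the 4 factors tested, by a test of the difference itself (edgeR's quasi-likelihood test, Benjamini-Hochberg adjusted). In that test 3.14% of all tested genes were called, 1.52% higher and 1.62% lower. For Cdx2 the difference was 0.774 on the log2 scale (SE 0.10, adjusted p = 0.00162), with -0.54 on plates and 0.23 in 3D, the lower in both 2D-iHE libraries and the higher in both iHEA libraries. For Sox17 it was 0.307 (SE 0.0749, adjusted p = 0.0471), with -0.45 on plates and -0.15 in 3D. Adjusted p over the alternatives ran from 6.05e-10 to 0.0161 for Cdx2 and from 0.00786 to 0.177 for Sox17. No group was large enough for a check of single libraries except the 2D and 3D groups of 4, in which none stood out.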

How the results depend on the processing

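Over all alternatives, the number of the 9 genes called stayed within 1.5 times of the main count in 128 cases and moved further in 20, and the value of a single gene kept its direction and call in 519 cases, reversed in 13, gained a call in 5 and lost it in 14. When a call also needed a change of 1 or more on the log2 scale, 0 genes were called in 3D against 2D, in iHLO against 2D-iH, in 2D-iHE against 2D-iH, in iHEA against 2D-iHE and in the co-culture difference, 1 in adult against fetal liver and 2 in 2D-iH against fetal liver. Without a filter on low counts 6 were called in adult against fetal liver and 8 in 2D-iH against fetal liver, and with the 9 genes added to those tested 7 and 8. Fewer or more genes entered these tests by construction. The fit on all 14 libraries called 1 gene in the co-culture difference (Sox17 lost, adjusted p = 0.0579), and gave -0.00068 for Cdx2 and -0.017 for Gata6 between iHLO and 2D-iH. Library totals in place of TMM gave -1.32 for Gata4 and -1.09 for Sox17 between adult and fetal liver. In that comparison Gata4 was called higher with DESeq2 size factors (0.25, adjusted p = 0.0330), and Sox17 lost its call with no filter (0.33, adjusted p = 0.0608) and in a fit of only the 4 liver libraries (0.34, adjusted p = 0.133). The cause of each was not tested.

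With each library left out in turn, the number called ran from 2 to 3 in 3D against 2D, from 0 to 2 in iHEA against iHLO, from 1 to 2 in the co-culture difference and from 2 to 4 in adult against fetal liver. Some values changed sign: Gata6 in 3D against 2D from -0.071 to 0.027, Cdx2 and Gata6 in iHLO against 2D-iH from -0.013 to 0.11 and from -0.043 to 0.10, and Gata4 from -0.23 (called lower, without the first iHEA library) to 0.057 in iHEA against iHLO and from -0.10 to 0.18 in the co-culture difference.

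The replicate numbers did not pair the libraries. With the replicate block, over the libraries that have a number, Gata6 was at 0.013 in 3D against 2D and Gata4 at 0.063 in iHEA against iHLO (0.057 without the block in the same libraries), and 1 gene was called in the co-culture difference (Sox17 lost, adjusted p = 0.0552, against 0.0374 without the block in the same libraries). Calls were also lost for Cdx2 in 3D against 2D (0.35, adjusted p = 0.0689, against 0.0486) and for Sox17 between adult and fetal liver (0.36, adjusted p = 0.0576, against 0.0244). This fit also leaves out the unnumbered iHEA library. With all libraries 160 genes were called higher and 143 lower between iHEA and iHLO. The counts were 571 and 525 between 2D-iHE and 2D-iH, and 204 and 217 in the co-culture difference. These counts over all genes were larger in this fit. Most of the rise came with the omission of that library, and the block moved the counts less. Without a filter the iHEA against iHLO counts were 429 and 452 and those of the co-culture difference 389 and 512. Library totals moved the split to 749 and 411 between 2D-iHE and 2D-iH, 2241 and 10685 between adult and fetal liver (5763 and 6056 with TMM), and 10551 and 2537 between iHLO and adult liver (6366 and 5624 with TMM). With a prior count of 5, 1 of the 3 genes most like Sox2, Gata5, Barx1 and Sox17 was shared with the list given. With 2 libraries per condition, factors with few counts were limited by depth.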
